A study of Homo sapiens with 6 samples.

Results

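The replication-dependent (RD) histone genes encode the core and linker histones that are made while DNA is copied. They were taken from the deposited gene counts of H660 cells as every row whose symbol starts with HIST1H, HIST2H, HIST3H or HIST4H, and rows whose symbol or annotation marks a pseudogene were dropped. Of 74 matching rows 4 were dropped, which left 70 genes among the 28008 rows of the table. The 70 genes comprised 6 of type H1, 17 H2A, 18 H2B, 14 H3 and 15 H4, and 50 of them had enough counts to be tested, out of 17026 genes tested in all. The cells were NCI-H660, an established neuroendocrine prostate cancer line, and all 6 cultures carried an shRNA (a hairpin RNA that silences its target) for MUC1 in a tetracycline-inducible vector selected with puromycin. DOX-negative cultures received 0.1% DMSO as vehicle (n = 3) and DOX-positive cultures received doxycycline (DOX) at 500 ng/ml for 7 days (n = 3), and all were grown in serum-containing RPMI medium. No library with a control hairpin was analysed here, so effects of the hairpin and of DOX itself cannot be told apart. The labels give cultures in triplicate and do not say whether these were separate experiments, so the spread between libraries, and every p value drawn from it, may be technical.

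RD histone mRNAs are the main animal mRNAs that end without a poly(A) tail. Their 3' end is cut behind a short stem-loop, which stem-loop binding protein (SLBP) holds, and the U7 snRNP guides the cut. The genes lie in clusters that are transcribed in S phase under NPAT, and the mRNAs are degraded when DNA synthesis stops. Pairs of H2A and H2B and pairs of H3 and H4 form the core of the nucleosome, around which DNA is wrapped, while H1 binds the linker DNA. Several H2B and H2A genes can also give polyadenylated transcripts in cells that have left the cell cycle.

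The stem-loops are shown because they define the family and check the label. GENCODE 29 (GRCh38) gave sequence behind the stop codon for 36 of the 70 genes, and a search of the first 100 bases found the histone stem-loop in 32 of them (88.9%), against 1 of 19344 other protein-coding genes (0.00517%). The 4 without a match were HIST1H1E, HIST1H1T, HIST1H2BJ and HIST1H4C. The search used 1 fixed pattern of 16 bases within the annotated transcripts, so a missing match does not show that these genes lack the stem-loop. The 6 forms found are written 5' to 3' as DNA, with the stem in capitals and the loop in lower case.
17 genes including HIST2H2BF, HIST1H2AC and HIST1H3H: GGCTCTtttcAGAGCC
HIST1H4B, HIST1H4E, HIST1H4H, HIST1H4J and HIST4H4: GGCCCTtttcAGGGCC
HIST1H2BC, HIST1H2BD, HIST1H2BF, HIST1H3G and HIST3H3: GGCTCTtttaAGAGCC
HIST1H4I, HIST2H4A and HIST2H4B: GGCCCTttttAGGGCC
HIST1H3E: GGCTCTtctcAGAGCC
HIST1H2AG: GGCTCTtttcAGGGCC
All 8 H4 genes with a stem-loop had the stem that begins GGCCCT, and 0 genes of the other types had it. The single match outside the family was H2AFX, which encodes the DNA damage-responsive variant H2A.X.

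The promoters are shown for both genes that passed the test, and beside them for the H2A and the H4 gene of highest abundance. RefSeq promoters (GRCh38.p14, 250 bases before to 50 bases after the start) were matched for 60 of the 70 genes, of which 4 had 2 entries, giving 64. The printed stretch is the 250 bases before the start, in the direction of transcription. Capitals mark the octamer ATTTGCAT (the site class of POU factors), TATAAA and CCAAT, each searched on both strands, and where matches touch or overlap they run together.
HIST1H2BM, chr6:27814772-27815021, plus strand: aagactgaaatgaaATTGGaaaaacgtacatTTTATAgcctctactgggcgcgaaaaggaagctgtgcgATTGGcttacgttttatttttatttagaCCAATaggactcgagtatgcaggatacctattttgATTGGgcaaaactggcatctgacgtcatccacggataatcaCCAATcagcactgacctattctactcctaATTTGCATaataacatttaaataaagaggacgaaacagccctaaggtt
HIST2H2BF, chr1:149812371-149812620, minus strand: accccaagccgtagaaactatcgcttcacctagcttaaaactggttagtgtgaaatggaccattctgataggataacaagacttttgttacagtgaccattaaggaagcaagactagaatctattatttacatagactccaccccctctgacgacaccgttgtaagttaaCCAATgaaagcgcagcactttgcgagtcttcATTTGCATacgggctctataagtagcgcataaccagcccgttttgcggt
HIST1H2AG, chr6:27132793-27133042, plus strand: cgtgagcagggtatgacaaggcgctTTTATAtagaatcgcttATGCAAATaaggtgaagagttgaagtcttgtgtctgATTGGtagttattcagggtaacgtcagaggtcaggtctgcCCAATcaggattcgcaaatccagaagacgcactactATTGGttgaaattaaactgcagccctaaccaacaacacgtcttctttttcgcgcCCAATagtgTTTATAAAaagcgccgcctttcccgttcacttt
HIST1H4E, chr6:26204360-26204609, plus strand: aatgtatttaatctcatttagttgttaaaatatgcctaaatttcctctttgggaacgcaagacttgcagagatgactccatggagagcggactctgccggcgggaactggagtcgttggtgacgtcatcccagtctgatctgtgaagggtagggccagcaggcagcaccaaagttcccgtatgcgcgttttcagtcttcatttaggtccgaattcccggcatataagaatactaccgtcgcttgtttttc
The octamer was in 11 of 16 H2A promoters (68.8%) and 10 of 15 H2B promoters (66.7%), against 1.77% of all 35116 promoters in the table. It was in 1 of 14 H3 promoters (7.14%) and in 0 of 6 H1 and 0 of 13 H4 promoters. CCAAT was in every H1, H2A, H2B and H3 promoter and in 3 of 13 H4 promoters (23.1%), against 34.6% of all promoters. TATAAA was in 43 of the 64 histone promoters (67.2%), against 11.5% of all. These are letter matches, not measured binding sites, and H2A and H2B genes that face away from each other share most of their promoter sequence, as HIST1H2BM does with HIST1H2AJ.

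Values by library are given in the order of replicates 1, 2 and 3. Total counts ran from 47620696 to 74061121 per library. MUC1, the target of the hairpin, fell from 86.0 ± 5.65 to 34.6 ± 4.08 CPM (library-size-scaled abundance with TMM factors; SD, n = 3), a log2 fold change of -1.32 by edgeR's quasi-likelihood test (adjusted p = 0.00017). Of the neuroendocrine markers, CHGA was at 189.7 to 239 CPM and SYP at 76.5 to 87.4 CPM (log2 fold change -0.20 and -0.03, neither called). NCAM1 and INSM1 were called lower with DOX (-0.50 and -0.45, adjusted p = 0.014 and 0.039, edgeR), while CHGB was at 0.29 with every DOX-positive library above every DOX-negative one (adjusted p = 0.17) and ENO2 at 0.13 (adjusted p = 0.71). Of the leukocyte markers only CD14 was tested, and PTPRC was at 0 to 0.016 CPM. Of the fibroblast markers, DCN and PDGFRB were at 0 to 0.036 CPM, while COL1A1 and LUM were called higher with DOX (log2 fold change 0.60 and 1.06), with LUM at 0.986 to 3.51 CPM, and COL1A2 was at -0.71 (adjusted p = 0.20). The calls of NCAM1, INSM1, COL1A1 and LUM were lost without DOX-negative replicate 2 (adjusted p = 0.079, 0.15, 0.083 and 0.13) and without DOX-negative replicate 3 (adjusted p = 0.082, 0.17, 0.12 and 0.14), and those of INSM1 and LUM also without DOX-positive replicate 3 (adjusted p = 0.073 and 0.077). The INSM1 call was lost as well without DOX-positive replicate 2 (adjusted p = 0.070). The part of these markers in the histone values was not tested. The labels name a stranded mRNA kit. Small RNAs with no poly(A) tail nevertheless took 13.0, 12.2 and 14.6% of the counts without DOX and 11.4, 17.4 and 14.2% with DOX. The selection step by which RD histone mRNAs entered these libraries is therefore not known, and in bulk RNA fewer S-phase cells and less histone mRNA per cell cannot be told apart.

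RD histone mRNA was abundant in H660 cells and varied by type and gene. The 70 genes together held 1.92, 2.01 and 1.83% of the counts without DOX and 1.95, 1.96 and 1.51% with DOX. Of these 6 values 5 lay close together and DOX-positive replicate 3 was the lowest. Per gene length, the deposited TPM (transcript abundance corrected for gene length) of the 50 tested genes spanned 0.412 for HIST1H2BI to 2386 for HIST1H4E, with a median of 442. The 5 genes of highest mean TPM were HIST1H4E, HIST1H3B (2176), HIST1H1C (2012), HIST1H4B (1658) and HIST1H4C (1534). At the other end, HIST1H1T, the linker histone of male germ cells, had a mean of 2.33 TPM.

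The 20 genes that were not tested were sparse or empty. Of these, 8 had 0 counts in every library, 10 had 1 to 9 counts over all 6 libraries, and the other two had at most 49. The empty rows included HIST2H4A, HIST2H4B, HIST2H3A, HIST2H3C, HIST2H2AA3 and HIST2H2AA4, whose transcripts share between 97.1 and 100% of their 50-base stretches with a near-identical copy. The handling of reads that fit more than 1 place is not given in the sources used here, so these zeros do not show that the genes are silent. Of the 50 tested genes, 6 shared over 50% of their 50-base stretches with another histone row and 22 shared none. Counts of the 6, which are HIST1H2AI, HIST1H2AJ, HIST1H2AM, HIST1H3J, HIST1H4J and HIST1H4K, are uncertain as single-gene values.

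DOX-positive and DOX-negative cultures were compared to find transcripts that depend on MUC1. Of the 50 genes, 2 were called higher (4%) and 0 were called lower at an adjusted p under 0.05 (edgeR quasi-likelihood, Benjamini-Hochberg over all 17026 genes), against 2.91% of all genes called higher and 1.96% called lower. Both called genes were of type H2B. At an unadjusted p under 0.05 the count was 3 of 50 (HIST1H4C beside the called genes), against 21.1% of all genes. The groups did not overlap for the same 2 genes, both higher, against 14.8% of all genes without overlap and higher, and for 0 genes lower, against 13.3%. The shares called were thus near the background in both directions, and the shares without overlap and at an unadjusted p under 0.05 were below it.

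Of the 50 log2 fold changes, 17 were above 0 and 33 below, with a median of -0.05 beside 0.00 for all genes tested. The median standard error (SE) of a histone gene was 0.11, and 0.10 for all genes. By type, the medians were -0.10 for H1 (1 of 5 higher), -0.04 for H2A (4 of 13), 0.00 for H2B (8 of 16), -0.11 for H3 (1 of 6) and -0.08 for H4 (3 of 10). Without DOX-positive replicate 3 the median of the 50 genes was 0.07 and 36 were higher, and without DOX-positive replicate 2 it was -0.13 and 7 were higher, so the sign of the family's median depended on DOX-positive replicate 3.

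**Figure D1:**
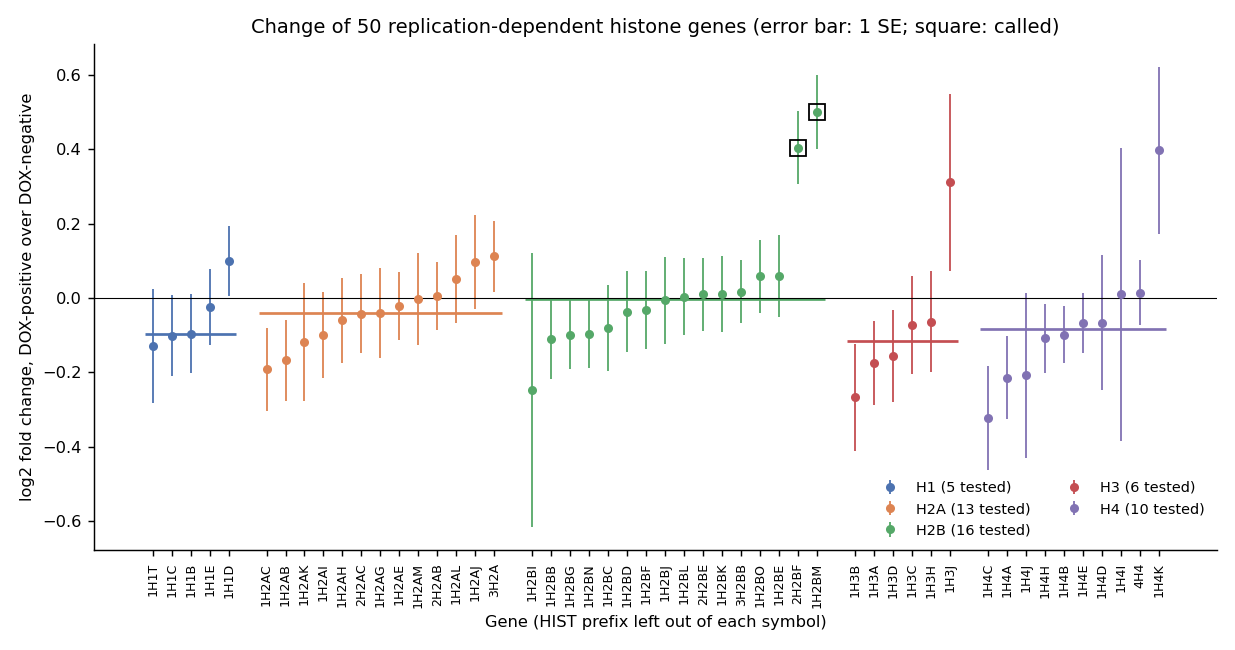
The log2 fold change of each tested RD histone gene (DOX-positive over DOX-negative, vertical axis) is plotted by type along the horizontal axis, with error bars of 1 SE, a horizontal line at the median of each type and a square around the called genes. Most of the 50 points lie within 0.2 of 0, and the squares mark HIST2H2BF (0.41) and HIST1H2BM (0.50).

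HIST1H2BM, an H2B gene, was the member with the largest rise. It lies at chr6:27815044-27815424 (GRCh38, GENCODE 29, plus strand) as a single exon and shares 0% of its 50-base stretches with another histone row. Its abundance was 11.7, 11.8 and 10.7 CPM without DOX and 15.4, 18.1 and 15.0 CPM with DOX. Every DOX-positive library was above every DOX-negative library. The log2 fold change was 0.50 (SE 0.10, adjusted p = 0.019, edgeR), and HIST1H2BM was a minor H2B gene at a mean of 29.1 TPM. Its neighbour HIST1H2AJ starts 304 bases away on the other strand and reads 0.10 (SE 0.13, adjusted p = 0.71), with 83.7% of its 50-base stretches shared with HIST1H2AI.

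HIST2H2BF, the other called gene, is also an H2B gene. It had 30.5, 31.5 and 28.9 CPM without DOX and 37.3, 46.1 and 37.1 CPM with DOX. The groups did not overlap, and DOX-positive replicate 2 was the highest library, as it was for HIST1H2BM. The log2 fold change was 0.41 (SE 0.098, adjusted p = 0.037, edgeR) at a mean of 21.2 TPM. HIST2H2BF differs from most of the family in having 2 exons and a gene model of chr1:149782689-149812373, which overlaps FCGR1A and AC243772.2 in GENCODE 29, and 12.4% of its 50-base stretches are shared with HIST2H2BE. Reads of its stem-loop form and of a longer spliced form, and reads of genes it overlaps, cannot be told apart in a count per symbol. Both calls were lost without DOX-negative replicate 2 and without DOX-negative replicate 3, where 0 histone genes were called, and the HIST2H2BF call was also lost without DOX-negative replicate 1. The changes kept their size in these edgeR fits, at 0.53 and 0.45 for HIST1H2BM without DOX-negative replicates 2 and 3 (adjusted p = 0.078 and 0.12) and at 0.41, 0.44 and 0.37 for HIST2H2BF without replicates 1, 2 and 3 (adjusted p = 0.078, 0.11 and 0.19). In the fit without DOX-negative replicate 3, 58 genes were called in all, against 829.

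**Figure D2:**
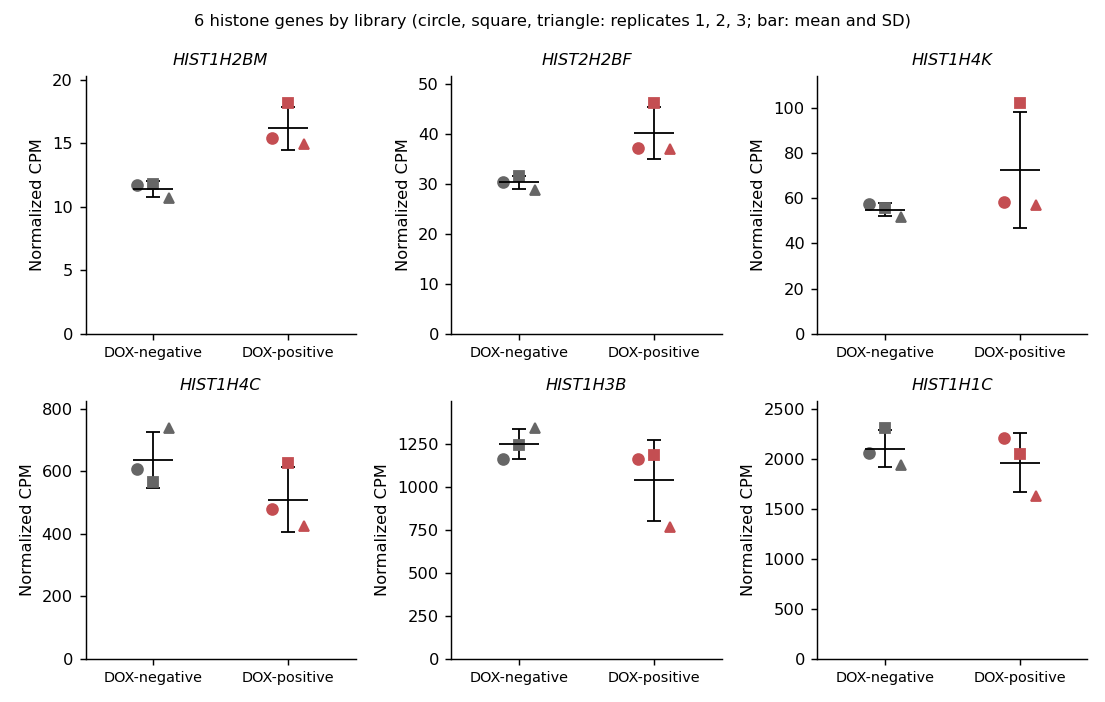
Normalized CPM (vertical axis, starting at 0) of 6 RD histone genes in DOX-negative (grey) and DOX-positive (red) libraries, with circle, square and triangle for replicates 1, 2 and 3 and bars for the mean and SD (n = 3). The groups separate for HIST1H2BM and HIST2H2BF and overlap for the other 4, where 1 DOX-positive library sets most of the spread of HIST1H4K (101.8 CPM in replicate 2) and HIST1H3B (764 CPM in replicate 3).

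The other H2B genes did not pass the test. HIST1H2BC, HIST1H2BF and HIST1H2BJ, the H2B genes of highest TPM, had log2 fold changes of -0.08, -0.03 and -0.01. HIST1H2BC had 721, 799 and 614 CPM without DOX and 723, 733 and 562 CPM with DOX. HIST1H2BF had 447, 477 and 389 CPM against 432, 484 and 368 CPM. In both genes the groups overlapped, and the lowest library was DOX-positive replicate 3. The lowest value of this type was that of HIST1H2BI (-0.25, SE 0.37), which had only 70 counts in all.

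H2A genes, the partners of H2B in the nucleosome, spanned -0.19 to 0.11, and the lowest adjusted p among the 13 was 0.36. HIST1H2AG had 571, 580.4 and 593 CPM without DOX and 556, 689 and 454 CPM with DOX. HIST1H2AI had 515, 535 and 547 CPM without DOX and 536, 564 and 390.2 CPM with DOX. HIST2H2AC had 439, 447 and 384 CPM against 417, 471 and 345 CPM. In all 3 of these genes DOX-positive replicate 2 was the highest of the 6 libraries and DOX-positive replicate 3 the lowest, while the DOX-negative libraries lay between them. At the edges of the type, HIST3H2A was at 0.11 (SE 0.096) and HIST1H2AC at -0.19 (SE 0.11, adjusted p = 0.36).

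The linker histones of type H1, which bind DNA between nucleosomes, gave 5 tested genes with adjusted p values from 0.60 to 0.92. HIST1H1C, which encodes H1.2, had 2064, 2305 and 1943 CPM without DOX and 2208, 2046 and 1632 CPM with DOX, a log2 fold change of -0.10 (SE 0.11). HIST1H1B (H1.5) had 1360.2, 1492 and 1334 CPM against 1361, 1482 and 1075 CPM, and HIST1H1E (H1.4) had a change of -0.02. For HIST1H1C and HIST1H1B the groups overlapped and DOX-positive replicate 3 was below the 5 other libraries. HIST1H1D (H1.3) was the H1 gene above 0, at 124, 124 and 108 CPM against 142, 128 and 112 CPM (0.10, SE 0.095). The germ-cell gene HIST1H1T was near 2 CPM in every library and gave -0.13 (SE 0.15).

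Among H3 genes, which carry most of the well-known histone tail modifications, HIST1H3B was the most abundant. It had 1162, 1239.9 and 1338 CPM without DOX and 1163, 1181 and 764 CPM with DOX. The first pair of DOX-positive libraries fell at the low edge of the DOX-negative range and the last lay far under it. The log2 fold change was -0.27 (SE 0.14, adjusted p = 0.32), and without DOX-positive replicate 3 it was -0.09. HIST1H3H (-0.06) and HIST1H3A (-0.17) also did not pass the test, and HIST1H3J, at 1.79 TPM and with 62.8% of its stretches shared, gave 0.31 (SE 0.24).

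H4 genes, nearly all of which encode one and the same protein, included the lowest change of the family. HIST1H4C had 606, 566 and 736 CPM without DOX and 478, 625 and 423 CPM with DOX. The groups overlapped because DOX-positive replicate 2 exceeded DOX-negative replicates 1 and 2. The log2 fold change was -0.32 (SE 0.14, adjusted p = 0.21, edgeR). Without DOX-positive replicate 2 it was -0.49 with an adjusted p of 0.044, the one fit in which a histone gene was called lower.

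HIST1H4K went the other way through a single library. It had 57.4, 55.6 and 51.7 CPM without DOX and 58.3, 101.8 and 57.1 CPM with DOX, where DOX-positive replicate 2 stood alone. The log2 fold change was 0.40 (SE 0.22, adjusted p = 0.37), it was 0.07 without that library, and 100% of its 50-base stretches are found in HIST1H4J. The H4 genes of highest TPM moved little. HIST1H4E was at -0.07 (SE 0.080) and HIST1H4B at -0.10 (SE 0.077).

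The spread within the DOX-positive group was shared across the family. DOX-positive replicate 3 was the lowest of the 6 libraries for 41 of the 50 genes (82%), against 23.3% of all genes tested. DOX-positive replicate 2 was the highest library for 31 of the 50 (62%), against 27.1% of all genes. The median deviation of the 50 genes from their own mean, on the log2(CPM + 0.1) scale, was 0.03, 0.06 and -0.04 without DOX and 0.04, 0.15 and -0.26 with DOX. DOX-positive replicates 2 and 3 thus lay farther from each other than any DOX-positive library lay from the DOX-negative group. By type, the median in DOX-positive replicate 3 was -0.24 for H1, -0.29 for H2A, -0.22 for H2B, -0.41 for H3 and -0.24 for H4. DOX-positive replicate 2 was the highest library for 12 of 13 H2A genes and for 0 of 5 H1 genes.

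**Figure D3:**
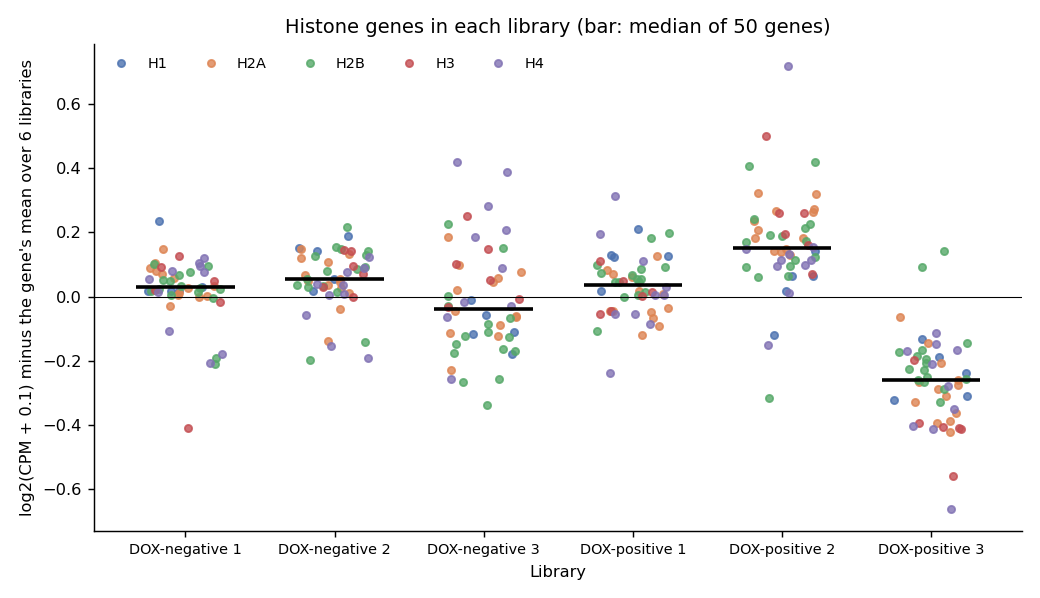
Each point is 1 of the 50 tested RD histone genes in 1 library (horizontal axis), placed at its log2(CPM + 0.1) minus its mean over the 6 libraries (vertical axis) and coloured by type, and black bars are medians. Points of DOX-positive replicate 2 lie mostly above 0 (median 0.15) and those of DOX-positive replicate 3 almost all below 0 (median -0.26), while the DOX-negative medians stay between -0.04 and 0.06.

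The 9 genes for which another library was the lowest were HIST1H1D, HIST1H2BE, HIST1H2BI, HIST1H2BM, HIST1H3J, HIST1H4K, HIST2H2BE, HIST2H2BF and HIST3H2A. RNAs without a poly(A) tail were also most abundant in DOX-positive replicate 2 (17.4% of counts), but they were not lowest in DOX-positive replicate 3 (14.2%). Their part in the spread of the histone genes was not tested. H2AFX, the stem-loop match outside the family, had 218, 239 and 207 CPM against 225, 267 and 177 CPM, with the same highest and lowest libraries. H2AFX was singled out after its values were seen. The same highest and lowest libraries were found for H1FX (365, 410 and 345 CPM against 381, 411 and 299 CPM), H2AFY2 and H3F3C. These are replication-independent histone genes in which no stem-loop was found. The other tested genes of that list had another highest or lowest library.

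Summed over each type, counts of near-identical copies do not depend on how reads were split among rows of that type, though reads that were discarded as ambiguous would be missing from every sum. H2A took 0.342, 0.347 and 0.329% of the counts without DOX and 0.341, 0.364 and 0.266% with DOX. H2B, its partner, took 0.550, 0.578 and 0.486% against 0.563, 0.568 and 0.450%. H3 took 0.224, 0.233 and 0.243% against 0.224, 0.231 and 0.154%. H4 took 0.293, 0.287 and 0.298% against 0.272, 0.290 and 0.232%, and H1 took 0.511, 0.562 and 0.478% against 0.551, 0.506 and 0.408%. In every type DOX-positive replicate 3 was the lowest library and the groups overlapped. On the CPM scale the log2 ratio of the group means was -0.07 for H1, -0.05 for H2A, -0.02 for H2B, -0.19 for H3 and -0.13 for H4. Without DOX-positive replicate 3 these became 0.04, 0.07, 0.08, -0.02 and -0.05.

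**Figure D4:**
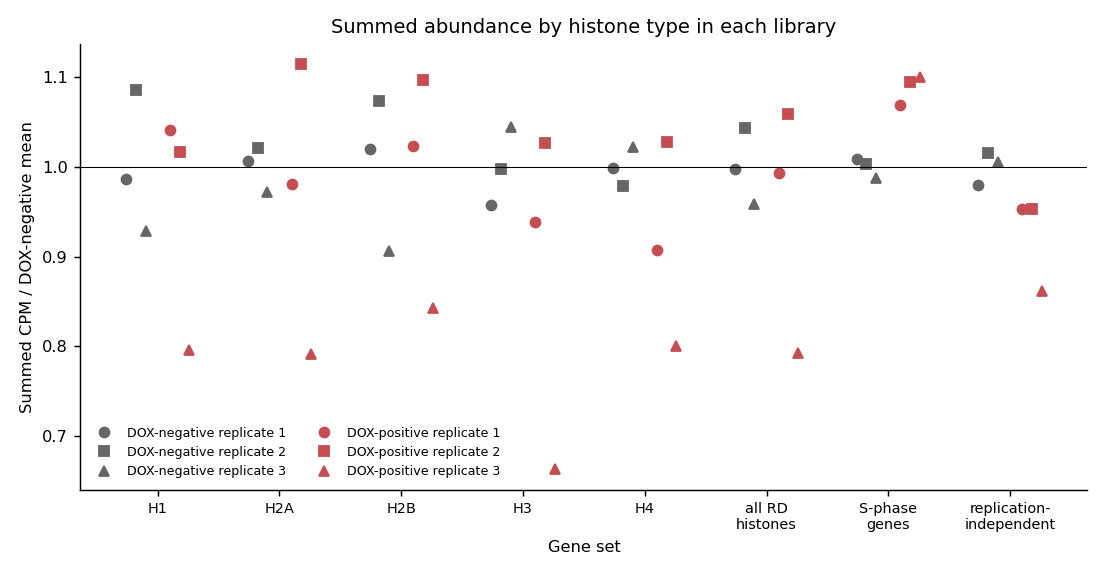
Summed CPM of each histone type, of all RD histones, of 47 S-phase genes and of the replication-independent histone genes (horizontal axis), divided by the mean of the DOX-negative libraries (vertical axis), with 1 symbol per library. DOX-positive replicate 3 (red triangle) is the lowest library in every RD histone type, whereas all 3 DOX-positive libraries lie above all DOX-negative ones for the S-phase genes.

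By abundance, none of the 17 genes of highest TPM (709 to 2386 TPM) was higher with DOX, with a median log2 fold change of -0.10. Of the 16 genes between 225 and 694 TPM, 7 were higher, with a median of -0.01. Among the 17 genes of lowest TPM (0.412 to 209 TPM), 10 were higher, with a median of 0.01. The count for the genes of highest TPM depended on single libraries, since 11 of those 17 were higher without DOX-positive replicate 3 and 5 without DOX-negative replicate 2. The ranking also rests on the gene lengths behind the deposited TPM, which were uneven. HIST2H2BE (0.01), at a mean of 721 CPM without DOX, was among the lowest at 189 TPM, with 7.47 times the family's median length. HIST1H2BK (0.01) and HIST1H2BD (-0.04), at 781 and 737.5 CPM, were in the middle at 597 and 579 TPM.

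**Figure D5:**
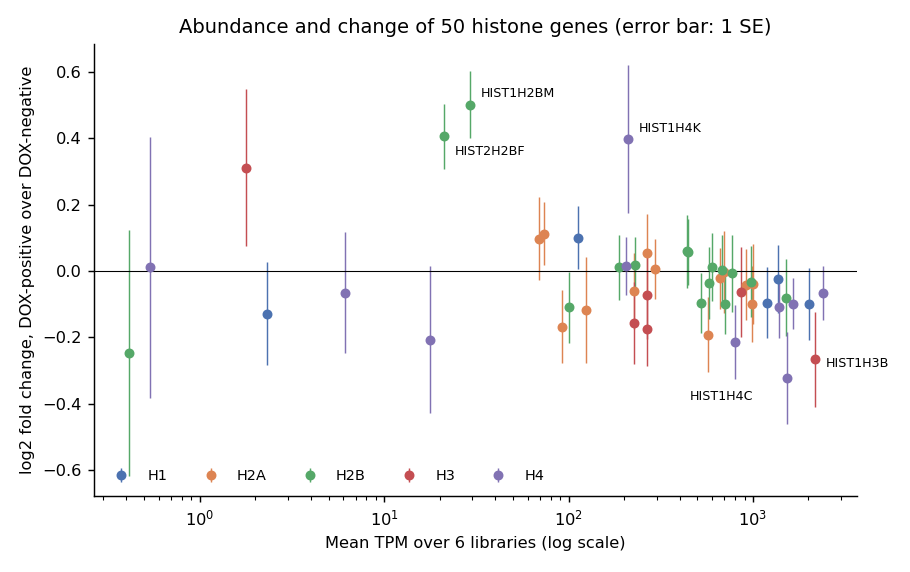
Mean TPM of each tested RD histone gene over the 6 libraries (horizontal log axis) against its log2 fold change (vertical axis), with error bars of 1 SE and colours for the type. The called genes HIST1H2BM (29.1 TPM) and HIST2H2BF (21.2 TPM) lie well left of the bulk of the family, and every gene above 709 TPM lies below 0.

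By position, 55 of the 70 genes lie in the HIST1 cluster (chr6:25726132-27893843), 11 in HIST2 (chr1:149782689-149887916), 3 in HIST3 (chr1:228424845-228460470) and HIST4H4 alone on chromosome 12. HIST1 falls into a pair of blocks. In the first (chr6:25726132-26285638), 2 of 24 tested genes were higher, with a median of -0.10. In the second (chr6:27125897-27893843), 9 of 19 were higher, with a median of 0.00, and it held HIST1H2BM. Over all clusters, 36 of the 50 tested genes were higher without DOX-positive replicate 3, against 17 with all libraries. The part of that library in the counts by block was not tested. Of 12 pairs of histone genes whose starts face away from each other within 1000 bases, 10 had both genes tested. In 3 pairs both were higher, in 3 both were lower, and in 4 they went in opposite directions. HIST1H2BO was counted with HIST1H2AM, where the directions were opposite, and again with HIST1H3J, where both were higher. The gene model of HIST1H3J overlaps HIST1H2AM, and HIST1H3J had 362 counts in all.

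Factors that make or shorten RD histone mRNA were read from a list of 22 genes, all tested, of which 2 were called higher and 0 lower, beside 2.91% of all genes called higher and 1.96% lower. The called genes, CCNE1 and CDK2, encode cyclin E1 and its kinase, which phosphorylates NPAT at the start of S phase. CCNE1 had 17.6, 16.0 and 15.3 CPM without DOX and 22.5, 26.3 and 27.8 CPM with DOX (log2 fold change 0.65, SE 0.10, adjusted p = 0.0070, edgeR). CDK2 had 189, 189.8 and 180.1 CPM against 216, 226 and 232 CPM (0.27, SE 0.068, adjusted p = 0.044). Neither gene's groups overlapped. The CCNE1 call was lost without DOX-negative replicate 3 (0.60, adjusted p = 0.075), and CDK2 was called without DOX-positive replicate 2 and lost without any other library (adjusted p 0.053 to 0.19). SLBP, the stem-loop binding protein, had 129.8, 128 and 119.5 CPM against 141, 142 and 144 CPM. Its groups did not overlap either, yet the change of 0.18 (SE 0.069) had an adjusted p of 0.16. NPAT had 55.2, 56.7 and 54.3 CPM against 52.2, 41.0 and 59.6 CPM, with overlapping groups (-0.12, adjusted p = 0.60).

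The S-phase list of 47 genes, which holds replication factors and nucleotide synthesis enzymes transcribed at the same stage as the histones, had 4 genes called higher and 0 lower, beside 2.91% and 1.96% of all genes. Of the 47, 38 were above 0, with a median of 0.11, as were 8528 of all 17026 genes, with a median of 0.00. The called genes were CDC25A, CDC6, RPA2 and RRM2. CDC6, which loads the replicative helicase, had 63.4, 61.3 and 63.4 CPM without DOX and 75.9, 78.8 and 82.7 CPM with DOX (0.34, SE 0.071, adjusted p = 0.022, edgeR). CDC25A, a phosphatase that activates CDK2, rose by 0.34 (adjusted p = 0.023), RRM2, a subunit of ribonucleotide reductase, by 0.28 (adjusted p = 0.038) and RPA2, which coats single-stranded DNA, by 0.29 (adjusted p = 0.045). Summed over the list, the DOX-negative libraries had 5770, 5733 and 5647 CPM and the DOX-positive libraries 6110, 6262 and 6293 CPM. All 3 DOX-positive sums were above the DOX-negative sums, and DOX-positive replicate 3 was the highest of the 6, where the histone sum was the lowest. All 4 calls were lost when any 1 DOX-negative library or DOX-positive replicate 3 was left out, with CDC6 between 0.30 and 0.35 and adjusted p values of 0.061 to 0.14 there, and RRM2 and RPA2 were also lost without DOX-positive replicate 1 (adjusted p = 0.076 and 0.071). Without DOX-positive replicate 2, 8 genes of the list were called, beside 828 of 17258 genes in all.

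Replication-independent histone genes, most of whose mRNAs are polyadenylated and not tied to S phase, had 0 of 11 tested genes called. Over all genes, 2.91% were called higher and 1.96% lower. Of the 11 genes, 8 were below 0. Their smallest adjusted p values were those of H3F3B, which encodes H3.3, and H2AFV, an H2A.Z gene. H3F3B had 357, 367 and 406 CPM against 331, 306 and 304 CPM (-0.26, SE 0.077, adjusted p = 0.070, edgeR). H2AFV had 543, 551 and 574 CPM against 503, 458 and 486 CPM (-0.20, SE 0.071, adjusted p = 0.12). In both genes the DOX-positive libraries all lay under the DOX-negative ones, without passing the adjusted threshold. The same held for H2AFY (-0.12, adjusted p = 0.32, edgeR). Of all genes tested, 13.3% were without overlap and lower. H2AFX, which has the histone stem-loop, and 2 others of the 11 were above 0.

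Of 21 histone chaperone genes, 1 was called higher and 1 lower, beside 2.91% and 1.96% of all genes. ASF1B, which hands H3 and H4 to the assembly factors at replication forks, had 122, 124 and 112 CPM against 153, 179 and 158 CPM (0.45, SE 0.081, adjusted p = 0.012, edgeR). ANP32E, which removes H2A.Z, had 133, 136 and 170.1 CPM against 113, 97.0 and 112 CPM (-0.45, SE 0.10, adjusted p = 0.029). For both the groups did not overlap. Without DOX-negative replicate 2 or 3 neither was called (ASF1B 0.48 and 0.40, adjusted p = 0.053 and 0.087; ANP32E -0.50 and -0.33, adjusted p = 0.074 and 0.14), and ANP32E was also lost without DOX-positive replicate 2 (adjusted p = 0.067).

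Small RNAs without a poly(A) tail were read as the other class of transcripts that lack one. Of 24 tested, 0 were called higher and 3 lower, beside 2.91% and 1.96% of all genes. The 3 were SNORD17 (-1.08, adjusted p = 0.014), RNU12 (-0.77, adjusted p = 0.0065) and SCARNA10 (-0.46, adjusted p = 0.049). Of the 24, 15 were below 0, with a median of -0.31. The summed CPM of the 34 rows found for the list went the other way, at a log2 ratio of 0.13 with overlapping groups. SNORD17, a box C/D small nucleolar RNA, had 146, 149 and 203 CPM without DOX and 82.5, 92.1 and 60.9 CPM with DOX. SCARNA10, a Cajal body RNA, had 675, 715 and 884 CPM against 533, 641 and 477 CPM. The groups of both were separate, and their highest library was DOX-negative replicate 3. The SNORD17 call was lost without DOX-positive replicate 2 (adjusted p = 0.062), the RNU12 call without DOX-negative replicate 3 (adjusted p = 0.057), and, of the fits that left out 1 library, SCARNA10 was called only without DOX-negative replicate 1 or DOX-positive replicate 2.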

How the data were processed

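Total RNA of 3 DOX-negative and 3 DOX-positive H660 cultures was sequenced. Raw counts for each gene symbol, and TPM (counts per gene length, rescaled to a common total), were deposited by the authors. The submitters' processing notes list STAR, DESeq2, GRCh38 and hg38, and the versions, strand setting and handling of multi-mapped reads are not given in the sources used here. Groups came from sample titles. Counts were filtered with filterByExpr, scaled with TMM and tested with edgeR 4.0.16 (R 4.3.3, glmQLFit robust, glmQLFTest, no covariate), with Benjamini-Hochberg adjustment over 17026 genes and a threshold of 0.05. On simulated counts the test recovered most of the changed genes, with a larger share of false calls than the threshold sets. Fold changes compare DOX-positive with DOX-negative on the log2 scale. The SE of a change was derived from the test, as the size of the change divided by the square root of its F statistic. TPM served to compare levels between genes. The histone genes and all lists were chosen with earlier results of these data known. HIST2H3PS2 was dropped as a pseudogene by its symbol, although both annotations call it protein-coding, together with HIST1H2APS1, HIST2H2BA and HIST2H2BC. Genes named are MUC1, called histone genes, per type the 3 of highest TPM and those of highest and lowest change, SLBP, NPAT, and from each other list up to 4 called genes or, where 0 were called, the 2 of smallest adjusted p. Other genes are named only as markers, neighbours or members of a small count. Alternatives tried were no scaling, upper-quartile or RLE factors, library sizes without histones and RNAs lacking a poly(A) tail, other count filters, DESeq2 1.42.0, limma-voom and limma-trend on log2 TPM (limma 3.58.1, pseudocounts 1 and 0.1), a replicate block and leaving out each library. Removal of GC and length trends was added after seeing the data. Within-group library pairs differed by more than sampling noise (chi-square per degree of freedom 16.4 to 101).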

Additional observations from a re-analysis of the deposited data

How the results depend on the processing

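Over the 13 alternatives that kept all 6 libraries, 2 histone genes were called higher and 0 lower, except in the 3 TPM fits, where 0 were called higher. The TPM fits called 0 to 35 genes in all (329 to 1248 at an unadjusted p under 0.05), and without a TPM filter MUC1 was at -1.22 (adjusted p = 0.29). HIST1H2BM was called in 14 of 19 alternatives (0.41 to 0.57, adjusted p 0.00056 to 1.00) and HIST2H2BF in 13 of 19 (0.30 to 0.46, adjusted p 0.0043 to 1.00). Genes called among the processing factors were 1 with RLE factors, with no scaling factors and with the replicate block, 0 in each TPM fit and 4 with GC and length trends removed. Chaperones called were 0 in each TPM fit. Replication-independent histones called were 1 by DESeq2 and 2 with GC and length trends removed. S-phase genes called were 2 with no scaling factors, 7 by DESeq2, 0 in each TPM fit and 14 with GC and length trends removed. The totals over all genes moved as well. They were 829 of 17026 in the main fit, 787 with RLE factors and 670 with no scaling factors. DESeq2 called 1355 of 22564 genes, and the fit with GC and length trends removed called 2116 of 15830. RNAs without a poly(A) tail called were 1, 1 and 0 in the TPM fits. Leaving out 1 library gave 0 to 2 histone genes called higher (1 when DOX-negative replicate 1 was left out, 0 when replicate 2 or 3 was) and 0 to 1 lower (HIST1H4C without DOX-positive replicate 2). It gave 0 to 3 processing factors, 0 to 2 chaperones, 0 to 8 S-phase genes and 1 to 5 RNAs without a poly(A) tail. Over all genes, these fits called from 58 (without DOX-negative replicate 3) to 1035 (without DOX-positive replicate 1). Without DOX-positive replicate 3, changes of the opposite sign were found for HIST1H1B (-0.19 to 0.026 over the 6 such fits), HIST1H1C (-0.19 to 0.015), HIST1H1E (-0.10 to 0.079), HIST1H2AG (-0.20 to 0.10), HIST1H2AI (-0.20 to 0.047), HIST1H2BC (-0.18 to 0.033), HIST1H2BF (-0.13 to 0.066), HIST1H2BJ (-0.14 to 0.14), HIST1H3H (-0.22 to 0.10) and HIST2H2AC (-0.15 to 0.069). HIST1H1E, HIST1H2BC, HIST1H2BF, HIST1H2BJ and HIST2H2AC also changed sign without DOX-negative replicate 2, and NPAT did without DOX-positive replicate 2 (-0.25 to 0.016). Where calls moved, the cause was not tested. Replicate numbers did not pair the libraries, since deviations of same-numbered libraries correlated at -0.56, 0.031 and -0.094 over 14256 genes, and the replicate block called 998 genes against 829, with the same 2 histone genes. With 3 libraries per group, no gene was called with a change under 3.81 times its SE, which at the median SE of a histone gene (0.11) is a log2 fold change of 0.42. The highest ratio of a gene that was not called was 4.47, so a change of 0.42 would not always be called.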
